A study of Mus musculus with 6 samples.

Results

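The ErbB receptors and their EGF-family ligands were examined in mammary tumors of NeuT/ATTAC+AP mice, whose epithelium is driven by an activated ErbB2. The set held 10 of the 55385 genes listed for each library, chosen by gene symbol. These were the 4 receptor genes Erbb2, Egfr, Erbb3 and Erbb4 and the 6 ligand genes Nrg1, Areg, Btc, Ereg, Hbegf and Tgfa. RNAseq libraries labelled as 3 control and 3 DMHCA tumors were made to learn how DMHCA, a steroid that activates the nuclear receptor LXR, altered the tumors. All mice were female and carried a rat ErbB2 gene with the activating change V664E, under the MMTV promoter that directs it to mammary epithelium, and an FKBPv-caspase-8 fusion under the FABP4 promoter, which directs it to fat cells. From 6 weeks of age AP20187, which dimerizes and so activates the caspase, was injected at 0.4 mg/kg to ablate part of the mammary fat. The DMHCA group also received a diet with 0.05% DMHCA, about 100 mg/kg, from 8 weeks of age. The treatment label of the controls reads "AP20187 Vehicle", and the study's account of controls that had also received AP20187 was followed. The labels call the tissue mammary gland fibrosis and the study calls it tumor. The epithelial markers Epcam, Krt8, Krt18, Krt19, Krt7, Cdh1, Cldn3 and Cldn7 summed to 3412 to 5028 TPM, a level corrected for transcript length and depth, in every sample.

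ErbB receptors are tyrosine kinases of the cell surface that pair up when a ligand binds and then activate the RAS-MAPK and PI3K-AKT pathways. ErbB2 has no known ligand and signals with a partner, often ErbB3, which binds neuregulins but has little kinase activity of its own. Amphiregulin, TGF-alpha, epigen and EGF bind the EGF receptor, betacellulin, epiregulin and HB-EGF bind the EGF receptor and ErbB4, and the neuregulins bind ErbB3, ErbB4 or both. In the normal mammary gland, amphiregulin is known as the estrogen-induced ligand of duct growth and ErbB4 as a receptor of the lactating gland.

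Libraries held 46358654 to 63420620 counts in the control group and 52330938 to 55539411 in the DMHCA group. DMHCA libraries 1 and 3 were nearly the same, with a biological coefficient of variation of 0.0327 against 0.376 to 0.579 in the other 5 pairs of a group, and 18.2% of 13380 genes differed between them by chi-square tests at the 0.05 level, against 82.0% to 87.0%. They were counted as 1 sample, so n is 3 control and 2 DMHCA samples. Of 19427 genes tested by edgeR's quasi-likelihood test, 0 (0%) passed 0.05 after adjustment and 1478 before it, and DESeq2 on the same 5 samples gave 244 after adjustment. Before adjustment, 3.53% of all genes tested were higher and 4.08% lower with DMHCA. Every DMHCA sample lay above every control sample in 13.8% of genes and below in 12.2%. Markers of other cells differed between samples. Summed adipocyte markers were 212, 125 and 971 TPM in control tumors 1, 2 and 3 and 70.2 and 71.4 TPM in DMHCA libraries 1 and 3 and DMHCA library 2, and 6 of the 7 markers were lower at an unadjusted p under 0.05 (Lep was listed at 0 in at least 1 library). Summed B cell markers were 29.3, 0.94 and 251 TPM against 1.96 and 1.73 TPM, with all 4 lower at that p, though each of the 4 overlapped and control tumor 2 had the lowest sum. Summed luminal markers were 4441, 4128 and 3412 TPM in the controls and 5012 and 5028 TPM with DMHCA. Of the 8 luminal markers, 0 were higher and 1 lower at that p, and 1 lay higher and 1 lower without overlap. Summed markers of basal cells, fibroblasts, endothelium, macrophages, T cells, neutrophils and skeletal muscle overlapped between the groups, and the neutrophil marker Ly6g was listed at 0 in at least 1 library. Among these lists, 1 basal and 1 T cell marker were lower and 1 endothelial marker was higher at an unadjusted p under 0.05. In bulk tissue, fewer cells of a type cannot be told apart from less RNA per cell.

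In TPM, which is scaled to transcript length, Erbb2 was far above the other receptors and the 6 ligands in every tumor of both groups, and Erbb4 was near absent in 1 sample of each group. With DMHCA, the neuregulin gene Nrg1 was 4.53-fold higher and the amphiregulin gene Areg 6.48-fold lower in the edgeR fit, and neither passed adjustment over all genes. The 10 genes all passed the filter on low counts. At an unadjusted p under 0.05, 1 of the 10 was higher with DMHCA (Nrg1) and 1 lower (Areg), and the same genes were those whose groups did not overlap. None had an adjusted p under 0.05 by edgeR, while DESeq2 on the same 5 samples gave Areg an adjusted p of 0.0341. The median log2 fold change was 0.17 over the 10 genes and -0.03 over all genes tested, and the 4 receptors held 0 genes with an unadjusted p under 0.05. With 10 genes, 1 gene in each direction is set beside 3.53% and 4.08% of all genes and is not read as a shift of the family.

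Erbb2 (ENSMUSG00000062312, chromosome 11 of GRCm38, 98412470 to 98437716, + strand) was the most abundant of the 10 genes in every library. Its level was 439, 191 and 210 TPM in control libraries 1, 2 and 3, and 424, 635 and 407 TPM in DMHCA libraries 1, 2 and 3. It ranked between 239 and 655 among the 55385 genes by TPM. Control tumor 1 lay with DMHCA libraries 1 and 3, above the other controls, and DMHCA library 2 was highest, so the groups overlapped. In normalized counts, Erbb2 was 92171, 53186 and 46247 in the controls and 88763 and 124701 with DMHCA. The means were 63868 ± 24756 (SD, n = 3) and 106732 ± 25412 (SD, n = 2), and the log2 fold change with its standard error was 0.74 ± 0.43 (SE, adjusted p = 0.670 by edgeR). As libraries were left out it ran from 0.51 without DMHCA library 2 to 1.09 without control library 1, and the unadjusted p was under 0.05 in that last case alone. As a percentage of the summed luminal markers, Erbb2 was 9.88, 4.63 and 6.15 in the controls and 8.28 and 12.6 with DMHCA, and the groups overlapped here too.

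Every row of the files had a mouse Ensembl identifier, and there was no row for the rat transgene. Reads of the rat transgene that were counted as Erbb2 cannot be told apart from reads of the mouse gene. The end of Erbb2, at 98437716, overlaps by a few bases that of Mien1, which lies on the opposite strand from 98437708 and had 4035 to 8388 expected counts per library. The strand setting of the counting was not stated. The genes on the opposite strand of Nrg1, Ereg, Tgfa and Egf had at most 10 expected counts in any library where they were listed. The mouse sequence around the valine that matches the rat position of V664E is shown because this residue, within the membrane-spanning segment, is the one altered in the transgene. In the mouse gene it is codon 660 of 1256 and lies in exon 17 of 27, at chr11:98432918-98432962 (GRCm38, + strand), with the valine codon in capitals, at 98432939 to 98432941.
Erbb2 codon 660: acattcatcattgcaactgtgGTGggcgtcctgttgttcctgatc
This is the sequence of the GENCODE reference transcript, not of the tumors.

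Erbb3 (ENSMUSG00000018166, chromosome 10, 128567523 to 128589652, − strand), the partner that couples ErbB2 to PI3K, was second in every library. Its TPM was 74.8, 46.4 and 30.5 in control libraries and 58.4, 99.7 and 58.0 in DMHCA libraries 1, 2 and 3. By TPM, the order of the samples from high to low was DMHCA library 2, control 1, DMHCA libraries 1 and 3, control 2 and control 3. By normalized counts, control 2 (16755) lay above DMHCA libraries 1 and 3 (16110). The log2 fold change was 0.44 ± 0.42 (SE, adjusted p = 0.769 by edgeR), and 0.12 without DMHCA library 2.

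Egfr (ENSMUSG00000020122, chromosome 11, 16752203 to 16918158, + strand), the receptor for amphiregulin and TGF-alpha, was the third of the 4 receptors in every library. It held 16.3, 9.45 and 14.5 TPM in control libraries and 21.3, 9.99 and 24.0 TPM in DMHCA libraries 1, 2 and 3. The DMHCA samples held the highest and the lowest normalized counts, 7121 in libraries 1 and 3 and 2760 in library 2, on either side of the controls (5499, 4224 and 6040). The log2 fold change of -0.09 ± 0.43 (SE, adjusted p = 0.960 by edgeR) turned to 0.48 without DMHCA library 2. The effective length of Egfr, which follows the mix of isoforms that RSEM estimated, ran from 6402 to 8444 bases over the libraries.

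Erbb4 (ENSMUSG00000062209, chromosome 1, 68032186 to 69108059, − strand) was the lowest receptor in every library. Its normalized counts were 184, 4.55 and 481 in the controls and 923 and 3.64 with DMHCA. Erbb4 was near absent in control tumor 2 and DMHCA library 2 and present in the others, so each group held 1 such sample. The log2 fold change was 1.06 ± 1.93 (SE, adjusted p = 0.883 by edgeR), and ran from 0.48 without control library 2 to 2.30 without control library 3. Of the hormone-related genes described below, Pgr and Foxa1, named after their values were seen, were also lowest in control tumor 2 and DMHCA library 2. So were Gata3, Elf5, Stat5a and Stat5b, with smaller differences between samples, but not Esr1 or Greb1. Egf and the summed T cell and B cell markers were lowest in those samples too, so the order was not particular to Erbb4. Pgr had 158, 13.7 and 483 normalized counts in the controls and 78.9 and 4.86 with DMHCA, and Foxa1 had 129, 14.8 and 810 against 68.0 and 7.28.

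**Figure D1:**
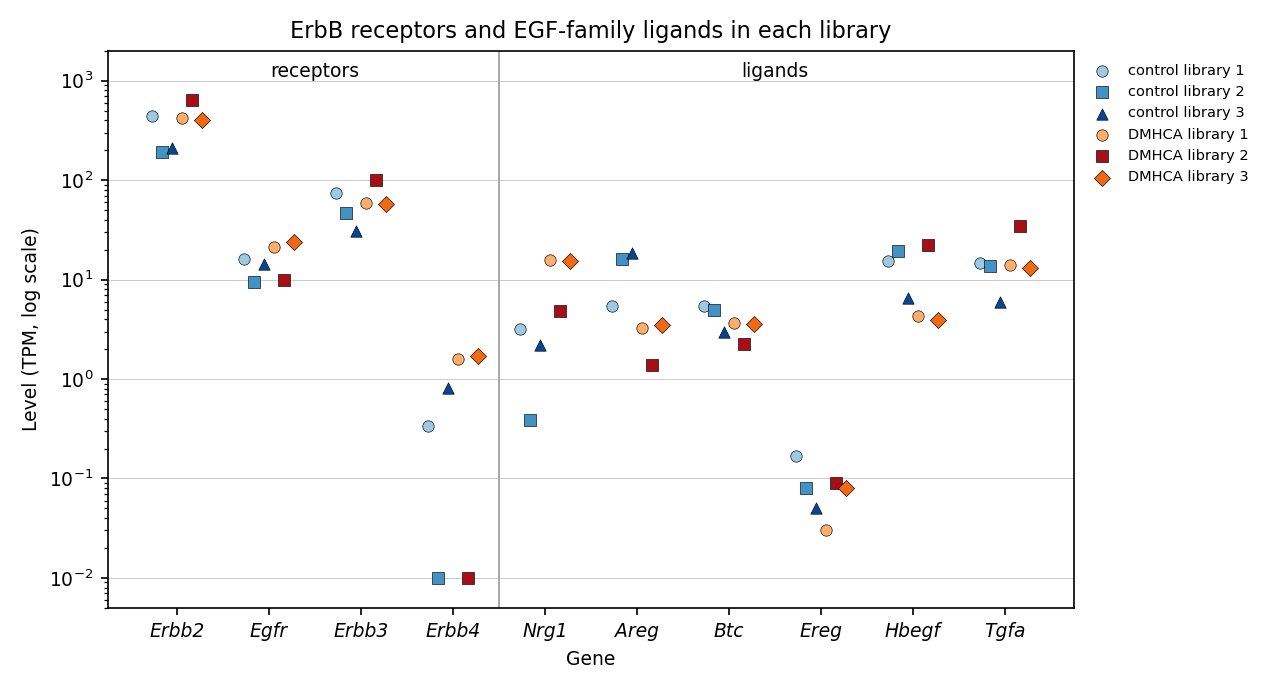
Level of each receptor and ligand gene (horizontal axis) in each of the 6 libraries, in TPM on a log scale (vertical axis), with control libraries in blue and DMHCA libraries in orange and red. DMHCA libraries 1 and 3 lie together for most genes. Erbb2 lies between 191 and 635 TPM, Nrg1 is higher and Areg lower in every DMHCA library, and Erbb4 is at 0.01 TPM in control library 2 and DMHCA library 2.

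The 4 receptors summed to 530, 247 and 256 TPM in control tumors and 498 and 745 TPM with DMHCA. Erbb2 made up 82.8%, 77.4% and 82.1% of this sum in the controls and 83.4% and 85.3% with DMHCA, means of 80.7% ± 2.93 (SD, n = 3) and 84.3% ± 1.31 (SD, n = 2). Erbb3 made up 11.7% to 18.8%, Egfr 1.34% to 5.67% and Erbb4 at most 0.334% in any sample. Since Erbb2 was itself most of the sum, its share could vary little, while its level varied more than 3-fold between libraries.

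Nrg1 (ENSMUSG00000062991, chromosome 8, 31814551 to 32884029, − strand) encodes neuregulin 1, the ligand that brings ErbB3 and ErbB2 together. Expected counts were 417, 52 and 280 in control libraries and 1735, 557 and 1676 in DMHCA libraries 1, 2 and 3. After normalization these were 481, 59.2 and 363 in the controls and 2054 and 676 with DMHCA. Both DMHCA samples lay above the 3 controls, with DMHCA libraries 1 and 3 well above DMHCA library 2 and control tumor 2 far below the rest. The means were 301 ± 218 (SD, n = 3) and 1365 ± 974 (SD, n = 2). The log2 fold change was 2.18 ± 0.87 (SE, adjusted p = 0.644 by edgeR) and ran from 1.69 to 2.81 as libraries were left out. Without control library 3 the unadjusted p was above 0.05. As a percentage of summed luminal markers, Nrg1 was 0.0723, 0.00945 and 0.0639 in the controls and 0.310 and 0.0965 with DMHCA. The effective length of Nrg1 ran from 2453 to 3372 bases over the libraries, so the mix of isoforms that RSEM estimated for this long gene differed between them. Summed fibroblast markers, of a cell type known to make neuregulin, were 793, 336 and 1305 TPM in the controls and 656 and 687 TPM with DMHCA, and their part in the Nrg1 difference was not tested. The study names Nrg1 among genes it selected on these same tumors, so its direction is no independent evidence.

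Areg (ENSMUSG00000029378, chromosome 5, 91139599 to 91148432, + strand) encodes amphiregulin and differed in the other direction. Expected counts were 221, 903 and 730 in control libraries and 136, 51 and 140 in DMHCA libraries 1, 2 and 3. Normalized counts were 255, 1028 and 947 in the controls and 166 and 61.9 with DMHCA. Control tumors 2 and 3 stood apart from control tumor 1, which lay nearer to DMHCA libraries 1 and 3 than to the other controls, and DMHCA library 2 was lowest. The means were 743 ± 425 (SD, n = 3) and 114 ± 73.7 (SD, n = 2). The log2 fold change was -2.70 ± 0.81 (SE, adjusted p = 0.644 by edgeR) and ran from -3.11 to -2.11 as libraries were left out. The unadjusted p was above 0.05 without DMHCA library 2, which leaves 1 DMHCA sample. Per luminal marker level the groups did not overlap either, with 0.121%, 0.387% and 0.536% in the controls and 0.0675% and 0.0274% with DMHCA. The summed luminal markers were higher in both DMHCA samples than in every control, which lowers such percentages with DMHCA. The study names Areg among genes it selected on these same tumors, so here too the direction is no independent evidence. Summed adipocyte markers were also lower in both DMHCA samples, as were summed B cell markers against control tumors 1 and 3 but not control tumor 2, and their part in the Areg difference was not tested.

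RefSeq promoter sequences (GRCm38.p6, 250 bases before to 50 after the start) were given for 6 of the 10 genes, Erbb2, Egfr, Erbb4, Areg, Btc and Tgfa. Both strands were searched for the cAMP response element CRE (TGACGTCA), the AP-1 element (TGANTCA), the E-box (CACGTG) and the DR4 element of LXR. Only exact matches were counted, with DR4 as a perfect repeat spanning 16 bases. Areg held 1 CRE and the other 5 promoters held none of the 4 motifs. The CRE was found in 1.79% of 32851 promoters, AP-1 in 7.81%, the E-box in 7.15% and DR4 in 0.0152%. So few promoters hold an exact DR4 that its absence here is not read as a lack of LXR elements. The Areg promoter is shown because the groups overlapped for the other 5 genes with a promoter but not for Areg, and because cAMP is a known inducer of amphiregulin through this element. The 250 bases before the start are chr5:91139349-91139598 (+ strand), with the CRE in capitals, at 91139538 to 91139545, its first base 61 bases before the start.
Areg promoter: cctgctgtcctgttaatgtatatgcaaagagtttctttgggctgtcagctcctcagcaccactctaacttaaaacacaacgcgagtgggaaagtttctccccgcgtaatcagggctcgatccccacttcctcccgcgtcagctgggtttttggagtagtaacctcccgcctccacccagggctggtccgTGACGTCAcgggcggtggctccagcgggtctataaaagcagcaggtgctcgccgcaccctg
The match is a description of the letters, and no binding was measured.

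Tgfa (ENSMUSG00000029999, chromosome 6, 86195223 to 86275719, + strand), which encodes TGF-alpha, had 2957, 3632 and 1265 normalized counts in the controls and 2782 and 6421 with DMHCA. DMHCA library 2 was highest, while DMHCA libraries 1 and 3 lay within the controls. Its log2 fold change was 0.81 ± 0.53 (SE, adjusted p = 0.685 by edgeR), and 0.12 without DMHCA library 2. Hbegf (ENSMUSG00000024486, chromosome 18), which encodes the heparin-binding ligand HB-EGF, had 1574, 2611 and 719 normalized counts in the controls and 431 and 2109 with DMHCA. DMHCA libraries 1 and 3 lay below every control, and DMHCA library 2 lay between control tumors 1 and 2. Its log2 fold change of -0.37 ± 0.76 (SE, adjusted p = 0.900 by edgeR) was -1.89 without DMHCA library 2, -0.73 without control library 3 and 0.15 without control library 2.

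Btc (ENSMUSG00000082361, chromosome 5, 91357261 to 91402994, − strand), the gene of betacellulin, had 672, 836 and 396 normalized counts in the controls and 465 and 262 with DMHCA. Control tumor 3 lay below DMHCA libraries 1 and 3, so the groups overlapped, and the log2 fold change was -0.80 ± 0.50 (SE, adjusted p = 0.683 by edgeR), with -0.41 without DMHCA library 2 and -1.05 without control library 3. Relative to summed luminal markers the overlap was lost, with 0.122%, 0.121% and 0.0862% in the controls and 0.0724% and 0.0444% with DMHCA. Those sums were higher in both DMHCA samples than in every control, which lowers such percentages with DMHCA. In TPM, Btc overlapped, with 2.94 in control tumor 3 and 3.63 in DMHCA libraries 1 and 3. Ereg (ENSMUSG00000029377, chromosome 5, 91074622 to 91093646, + strand), the gene of epiregulin, was scarcely expressed, with 8 to 27 expected counts in control libraries and 5 to 12 in DMHCA libraries. Its normalized counts overlapped, at 31.2, 20.5 and 10.4 in the controls and 10.2 and 14.6 with DMHCA (log2 fold change -0.75 ± 0.71 SE, adjusted p = 0.764 by edgeR).

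**Figure D2:**
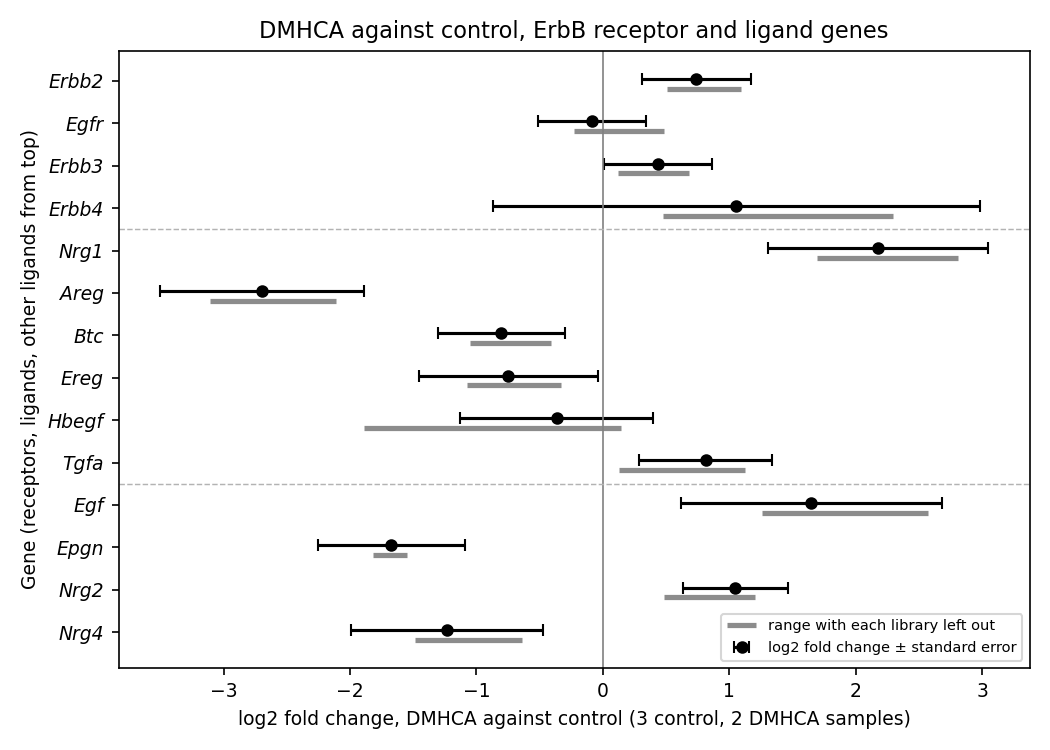
Log2 fold change of each gene, DMHCA against control (horizontal axis; 3 control and 2 DMHCA samples), with the standard error of the edgeR fit as bars and, in grey, the range as each library was left out. From top to bottom are receptors, the 6 ligands and 4 other ligands of the family. Nrg1 at 2.18 and Areg at -2.70 are farthest from 0 on either side among the 10 genes, and Erbb4 at 1.06 has the widest bar.

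The 6 ligands together held far less TPM than the 4 receptors together, a sum of which Erbb2 made up 77.4% to 85.3%. The gap was mostly Erbb2 and did not hold for each receptor, as Egfr and Erbb4 lay below some ligands. The 6 ligands summed to 44.5, 54.2 and 35.9 TPM in control tumors and 40.2 and 65.2 TPM with DMHCA, and these sums overlapped between the groups. Within the controls, Hbegf (13.8 ± 6.53 TPM, SD, n = 3), Areg (13.2 ± 6.88 TPM) and Tgfa (11.4 ± 4.83 TPM) did not differ beyond their spread. Btc (4.45 ± 1.32 TPM) and Nrg1 (1.93 ± 1.43 TPM) came next, and Ereg (0.10 ± 0.0624 TPM) was last. With DMHCA, the order was Tgfa (24.0 ± 14.8 TPM, SD, n = 2), Hbegf (13.1 ± 12.7 TPM), Nrg1 (10.2 ± 7.54 TPM), Btc (2.93 ± 0.990 TPM), Areg (2.38 ± 1.42 TPM) and Ereg (0.0725 ± 0.0248 TPM). The spread of the first 3 was wide enough that their order was not settled.

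The makeup of the ligand sum differed from tumor to tumor. Areg made up 12.1%, 29.5% and 50.9% of ligand TPM in control tumors and 8.41% and 2.12% with DMHCA. Nrg1 made up 7.21%, 0.719% and 6.07% in the controls and 38.6% and 7.44% with DMHCA, so DMHCA library 2 lay only just above control tumor 1. Areg was above Nrg1 in each of the 3 control libraries (5.39, 16.0 and 18.3 TPM against 3.21, 0.39 and 2.18). It was below Nrg1 in both DMHCA samples (3.24, 1.38 and 3.53 TPM in DMHCA libraries 1, 2 and 3, against 15.6, 4.85 and 15.5). Both genes were singled out by these same values, so the crossing is no further evidence. Tgfa made up 16.4% to 33.3% in the controls, 33.7% in DMHCA libraries 1 and 3 and 53.0% in DMHCA library 2. The leading ligand was Hbegf in control tumors 1 and 2, Areg in control tumor 3, Nrg1 in DMHCA libraries 1 and 3 and Tgfa in DMHCA library 2.

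**Figure D3:**
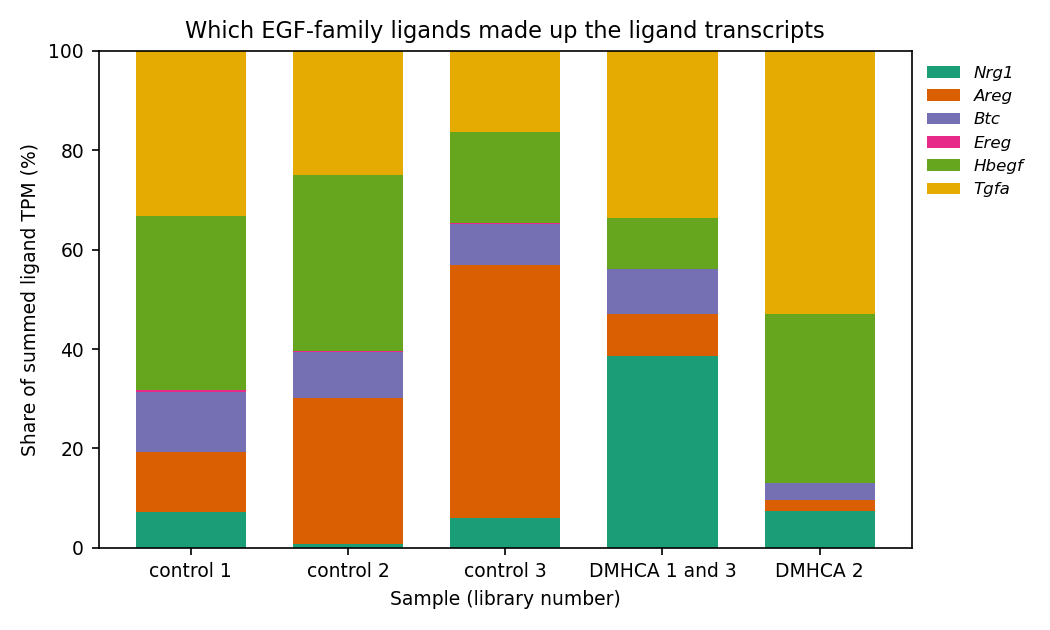
Share of the summed TPM of the 6 ligands (vertical axis, percent) taken by each ligand in each of the 5 samples (horizontal axis). Areg takes 12.1% to 50.9% in control tumors and at most 8.41% with DMHCA, and Nrg1 takes 38.6% in DMHCA libraries 1 and 3.

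Of the 5 other ligands of the family, 4 passed the filter. Nrg2, a second neuregulin gene, had 1298, 1394 and 777 normalized counts in the controls and 1575 and 3210 with DMHCA, with no overlap (log2 fold change 1.05 ± 0.41 SE, adjusted p = 0.644 by edgeR). The value was 0.48 without DMHCA library 2, the highest sample. Epgn, which encodes epigen, had low counts, with 27 to 35 expected counts in control libraries and 9 to 11 in DMHCA libraries, with no overlap (log2 fold change -1.67 ± 0.58 SE, adjusted p = 0.644 by edgeR). Egf was high in DMHCA libraries 1 and 3 alone, with 833 normalized counts against 54.6 to 257 in the controls and 76.5 in DMHCA library 2 (log2 fold change 1.65 ± 1.03 SE). The Egf value ran from 1.26 to 2.57 as libraries were left out. Nrg4 had 54.3, 44.4 and 119 normalized counts in the controls and 45.2 and 15.8 with DMHCA (log2 fold change -1.23 ± 0.76 SE), and it overlaps Fbxo22 on the opposite strand. The Nrg4 value ran from -1.49 to -0.64 as libraries were left out. Nrg3 had at most 4 expected counts in any library and was not tested.

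Areg, Btc, Ereg and Epgn lie side by side within 376 kb of chromosome 5 (91027464 to 91402994), an interval with 7 annotated genes of which these 4 were expressed highly enough to be tested. Each of the 4 had a negative log2 fold change (-2.70, -0.80, -0.75 and -1.67), as had 10099 of the 19427 genes tested. Areg and Epgn had an unadjusted p under 0.05, as had 4.08% of all genes on the lower side, and nothing is read from these 4 genes as a group. Their levels were unlike, from 0.03 TPM at the lowest value of Ereg to 18.3 TPM at the highest of Areg.

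The genes that release ligands from the cell surface and those that carry the receptor signal were taken from 6 fixed lists with 66 genes. Before adjustment, 5 of the 66 passed 0.05 as higher with DMHCA and 1 as lower (3.53% and 4.08% of all genes tested), and none passed after it. The groups did not overlap in 12 higher and 5 lower genes of the 66 (13.8% and 12.2% of all genes tested). The median log2 fold change was 0.14, against -0.03 over all genes tested. The 5 higher genes were Rhbdf2, Plcg1, Hras, Mapk3 and Rptor. Without control library 3, or without DMHCA library 2, which leaves 1 DMHCA sample, none of the 66 was higher at that p, while the log2 fold changes of these 5 genes lay between 0.49 and 0.86 (0.60 to 0.74 with all samples).

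Among 6 genes of ligand release, Rhbdf2, whose product iRhom2 matures the protease that sheds these ligands, had 3107, 3732 and 2814 normalized counts in the controls and 4494 and 6284 with DMHCA (log2 fold change 0.74 ± 0.27 SE, adjusted p = 0.644 by edgeR). Adam17, that protease, had a log2 fold change of -0.18 ± 0.25 (SE) and Adam10 one of -0.30 ± 0.27 (SE). Rhbdf1, Adam10, Adam17 and Nrd1 had means between 29.7 and 40.3 TPM in both groups, and Rhbdf2 had means of 18.9 TPM in the controls and 37.1 TPM with DMHCA.

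Among 12 brakes on the receptors, Socs3, an inhibitor of cytokine receptor signaling, was the 1 gene with an unadjusted p under 0.05 (4.08% of all genes tested were lower at that p). It had 1563, 1797 and 1625 normalized counts in the controls and 860 and 775 with DMHCA, with no overlap (log2 fold change -1.02 ± 0.28 SE, adjusted p = 0.644 by edgeR). The list's median log2 fold change was -0.07. Errfi1, an inhibitor of the ErbB kinases induced by their own signal, had 11901, 10834 and 12471 normalized counts in the controls and 20497 and 10405 with DMHCA, so only DMHCA libraries 1 and 3 stood out (log2 fold change 0.40 ± 0.35 SE). The next most abundant brakes were Socs5 (log2 fold change -0.73 ± 0.47 SE), Ptpn12 (-0.10 ± 0.31 SE) and Lrig1 (-0.03 ± 0.29 SE). The Socs5 value ran from -1.46 to -0.56 as libraries were left out.

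Among 11 adaptors, 10 had a positive log2 fold change, as had 9328 of the 19427 genes tested, and the median was 0.38. Control tumor 3 was the lowest of the 5 samples in 8 of the 11 adaptors (72.7%), against 26.0% of all genes tested. Plcg1, the phospholipase that docks on activated receptors, had 4635, 4080 and 3419 normalized counts in the controls and 5898 and 6399 with DMHCA (log2 fold change 0.60 ± 0.25 SE, adjusted p = 0.644 by edgeR). Shc1, the adaptor with the highest DMHCA mean (82.8 TPM), had 15022 normalized counts in DMHCA library 2 and 4700 to 6925 in the other samples. Grb2, which links receptors to RAS activation, had a log2 fold change of 0.04 ± 0.23 (SE), beside 0.15 ± 0.25 (SE) for Memo1 and 0.65 ± 0.32 (SE) for the kinase Src, which were also among the most abundant.

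In the RAS-MAPK core, 2 of 10 genes were higher at an unadjusted p under 0.05, against 3.53% of all genes tested. Hras had 3063, 2630 and 2667 normalized counts in the controls and 4425 and 4276 with DMHCA (log2 fold change 0.64 ± 0.23 SE, adjusted p = 0.644 by edgeR). Mapk3, which encodes ERK1, had 11942, 9055 and 8487 against 17383 and 15040 (log2 fold change 0.72 ± 0.28 SE, adjusted p = 0.644 by edgeR). Map2k2, which encodes MEK2, had a log2 fold change of 0.15 ± 0.28 (SE). In the PI3K-AKT core, Rptor, the scaffold of mTOR complex 1, was the 1 gene of 10 past that p (3085, 2299 and 2224 normalized counts against 3611 and 4355, log2 fold change 0.65 ± 0.26 SE, adjusted p = 0.644 by edgeR). Akt1, with 11315, 11940 and 8294 normalized counts in the controls and 14648 and 16781 with DMHCA, did not overlap but missed it (log2 fold change 0.58 ± 0.28 SE, adjusted p = 0.644 by edgeR). Pik3r1, a regulatory subunit of PI3K, had a log2 fold change of -0.52 ± 0.43 (SE), Akt2 one of 0.42 ± 0.27 (SE) and Pik3r2 one of 0.41 ± 0.30 (SE).

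The 17 feedback and target genes of MAPK signaling, which serve as a readout of the pathway, held 0 genes with an unadjusted p under 0.05, where 3.53% of all genes tested were higher and 4.08% lower, so nothing is read from this count. The groups did not overlap in 4 higher and 1 lower gene of the 17 (13.8% and 12.2% of all genes tested), and the median log2 fold change was 0.27. Control tumor 3 was the lowest of the 5 samples in 13 of the 17 genes (76.5%), while it was the lowest in 26.0% of all genes tested. Dusp6, the phosphatase of ERK, had 41995, 57131 and 11286 normalized counts in the controls and 31755 and 51192 with DMHCA. Ccnd1, cyclin D1, had 32855, 20306 and 8439 against 27282 and 33458, and Phlda1 had 31771, 28584 and 17844 against 33799 and 40884. Ier3, an early response gene, had 21067, 46790 and 10959 normalized counts in the controls and 27405 and 14152 with DMHCA, with a log2 fold change of -0.34 ± 0.64 (SE). The Ier3 value ran from -0.71 to 0.38 as libraries were left out, so its direction was not settled. Dusp5, another phosphatase of ERK, was the lower gene without overlap (1993, 2419 and 3226 against 1894 and 929, log2 fold change -0.85 ± 0.40 SE). Etv4, a transcription factor induced by the pathway and, like Dusp5, named after its values were seen, had 2787, 3760 and 755 normalized counts in the controls and 3766 and 6072 with DMHCA (log2 fold change 1.01 ± 0.62 SE, adjusted p = 0.675 by edgeR). By normalized counts, control tumor 3 was the lowest sample for Erbb2, Erbb3 and Tgfa. These are 3 of the 10 receptor and ligand genes, a share near the 26.0% of all genes. Control tumor 3 was the lowest sample in 3 of 6 ligand release genes and 1 of 12 brakes. In the RAS-MAPK core it was lowest in 4 of 10 genes, and in the PI3K-AKT core in 3 of 10. The pathway lists were thus not alike in this. Control tumor 3 had the highest adipocyte, fibroblast, basal, macrophage, B cell and T cell marker sums and the lowest luminal sum. Their part in its low values among the MAPK feedback and target genes was not tested.

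**Figure D4:**
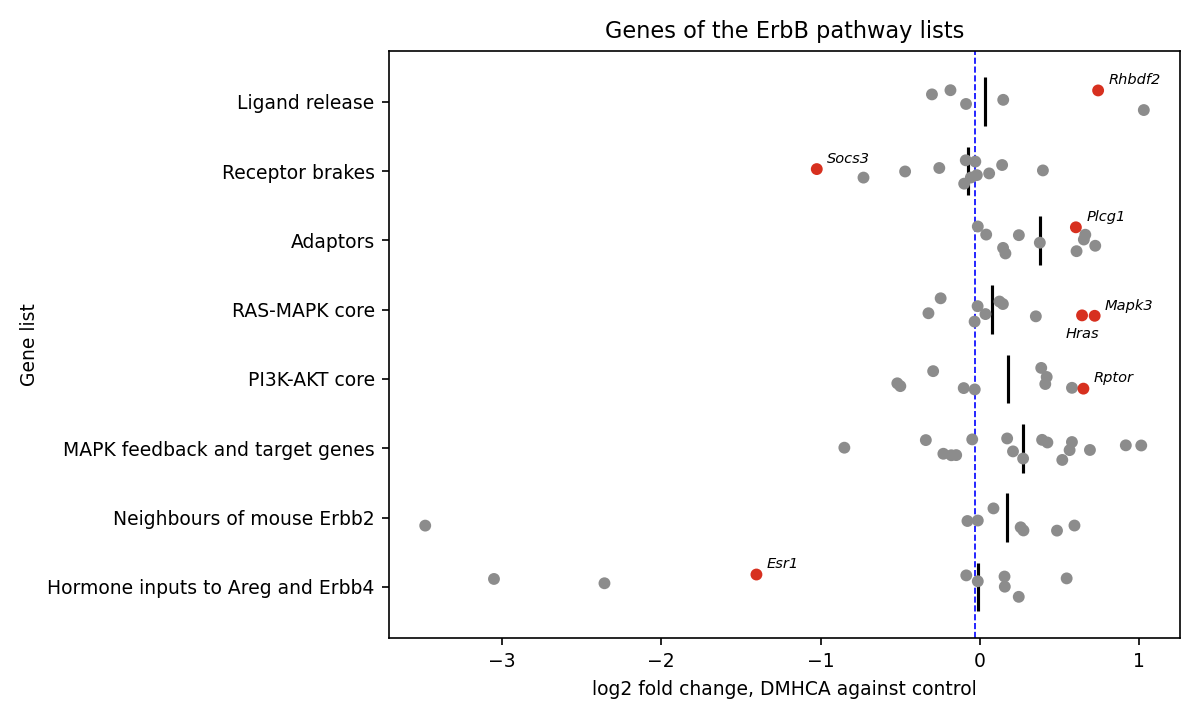
Log2 fold change, DMHCA against control (horizontal axis), of each tested gene in the 6 pathway lists, the neighbours of Erbb2 and the hormone-related list (vertical axis). Red points are genes with an unadjusted p under 0.05, black bars are list medians and the dashed line is the median of all genes tested. Red points are few in each list, and the adaptors have the highest median, 0.38.

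Mouse Erbb2 was set beside its neighbours on chromosome 11. The MMTV promoter belongs to the rat transgene and not to the mouse gene at this place. Of 9 neighbours, 8 were tested and 0 had an unadjusted p under 0.05, which at 3.53% and 4.08% of all genes tested is no result about the neighbours. Mien1, which overlaps Erbb2 by a few bases, had 5767, 9545 and 5269 normalized counts in the controls and 5131 and 7878 with DMHCA (log2 fold change -0.08 ± 0.37 SE). Grb7, an adaptor of ErbB2 that lies beyond it, had 4467, 4798 and 2469 against 4096 and 3662 (log2 fold change -0.01 ± 0.34 SE). Stard3, a sterol carrier gene, had 3628, 3864 and 2010 against 3774 and 3798 (log2 fold change 0.26 ± 0.33 SE). Control tumor 2 was the highest sample for these 3 genes and the second lowest for Erbb2. Other neighbours, named after their values were seen, were ordered more like Erbb2. Cdk12 had 2248, 1476 and 1717 normalized counts in the controls and 2505 and 2974 with DMHCA (log2 fold change 0.60 ± 0.28 SE), and Pgap3 had 1218, 1152 and 1032 against 1342 and 1401 (log2 fold change 0.27 ± 0.27 SE). Both were higher with no overlap, as were 13.8% of all genes tested. In Cdk12, Pgap3 and Ppp1r1b, as in Erbb2, control tumors 2 and 3 were the lowest samples, so the neighbours were not alike in their order.

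**Figure D5:**
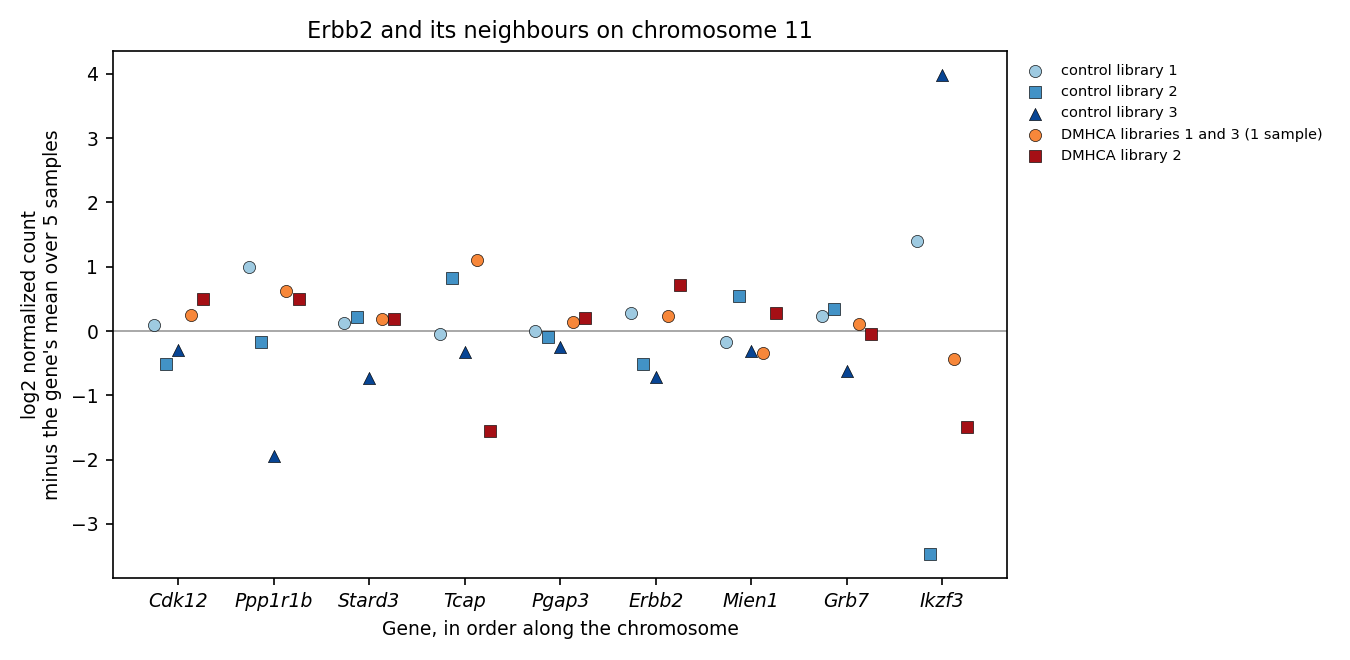
Normalized counts of Erbb2 and the 8 tested neighbours (horizontal axis, in order along chromosome 11), as log2 minus the gene's mean over the 5 samples (vertical axis). For Erbb2, Cdk12 and Pgap3, control tumors 2 and 3 are the lowest samples, and for Mien1 and Grb7 control tumor 2 is the highest sample.

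Genes of the hormone response were examined because amphiregulin is an estrogen target in the mammary gland. Esr1, the estrogen receptor gene, had 1084, 1311 and 1372 normalized counts in the controls and 527 and 422 with DMHCA, with no overlap. Its log2 fold change was -1.40 ± 0.33 (SE, adjusted p = 0.644 by edgeR) and ran from -1.51 to -1.21 as libraries were left out. It was the 1 gene of 9 in this list with an unadjusted p under 0.05 (4.08% of all genes tested were lower at that p). Greb1, an estrogen-response gene named after its values were seen, lay the other way at low counts, with at most 21.6 normalized counts in the controls and 24.1 and 26.7 with DMHCA, with no overlap (log2 fold change 0.55 ± 0.57 SE, adjusted p = 0.786 by edgeR). Of the list's most abundant genes, Elf5 (log2 fold change 0.16 ± 0.41 SE), Gata3 (0.25 ± 0.40 SE), Stat5a (-0.01 ± 0.39 SE) and Stat5b (0.16 ± 0.31 SE), all factors of luminal and milk-producing cells, had overlapping groups. Esr1 and Areg were both lower with DMHCA, and a link between them was not tested.

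Over the 5 samples and 12148 genes with at least 300 normalized counts, the genes whose log2 levels were most like those of Erbb2 included Foxk1 (Pearson r = 0.998) and Ankrd52 (0.998). For Nrg1 they were Fbxo46 (0.999), Supt5 (0.997) and Slc25a22 (0.997), and for Areg they were Slc25a38 (0.999), Ppcdc (0.998) and Snhg1 (0.997). With 5 samples such likeness is common, since 236, 302 and 136 genes had r above 0.95 with Erbb2, Nrg1 and Areg.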

How the data were processed

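The study describes 3 control and 3 DMHCA-treated mice with a tumor each. Whether DMHCA libraries 1 and 3 came from different mice cannot be told from the files. Per the labels, the authors used FastQC 0.11.9, Cutadapt 2.9, Bowtie2 2.4.1 and RSEM 1.3.1 on mm10, and deposited RSEM's expected counts, which divide a read between the genes it could come from and are not normalized. The deposited TPM values are scaled for transcript length and depth, and effective lengths, which the authors deposited beside them, follow the estimated isoforms. RSEM settings and strand use were not given in the sources used here, and FPKM was not used.

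Expected counts were rounded (19.6% to 23.5% of values were not whole). Libraries of a group were merged where their coefficient of variation, over genes with a mean of 100 or more counts, fell below 0.1 and lay 5 times or more under every other pair. Counts of the merged pair were summed and TPM averaged. The groups were compared with edgeR 4.0.16 (R 4.3.3, TMM, filterByExpr at a minimum count of 10 and total of 15, quasi-likelihood test), adjusting by Benjamini-Hochberg over 19427 genes. SE was taken as the log2 fold change over the root of F. Normalized counts were scaled to the mean effective library size, and p-values measure the spread between these samples only. The alternatives were DESeq2 1.42.0, 6 separate libraries with or without a replicate block, DESeq2 size factors, other filters, robust dispersions, limma 3.58.1 on log2(TPM + 1) or log2(TPM + 0.1), and each library left out. The members and lists were chosen with earlier results of these data known. All members and other ligands are named, with list genes at an unadjusted p under 0.05, up to 4 of the highest TPM per list and others where stated. Nrdc was found as Nrd1. Coordinates are those of GENCODE M21 (GRCm38). Python 3.11.15, pandas 2.3.3, numpy 2.4.6 and matplotlib 3.10.9 were used. Values of some genes that the naming rule or the lists hold are not reported here.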

Additional observations from a re-analysis of the deposited data

How the results depend on the processing

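Over the alternatives, 145 log2 fold changes of the 10 genes kept their direction and side of the adjusted threshold, 7 turned and 3 passed the threshold. Genes with an adjusted p under 0.05 numbered 0 by edgeR, 244 by DESeq2 on 5 samples, 846 by DESeq2 on 6 libraries and 16 with no filter on low counts, and 0 as each library was left out. DESeq2 on 6 libraries gave Nrg1 2.42 (adjusted p = 0.0197) and Areg -2.49 (adjusted p = 0.00317), and on 5 samples Areg -2.67 (adjusted p = 0.0341). The log2 fold change of Egfr turned to 0.093 by edgeR on 6 libraries without a replicate block, 0.12 by DESeq2 on them, and 0.19 and 0.20 by limma on log2(TPM + 1) and log2(TPM + 0.1), where the median of all genes was 0.195 and 0.218 (and -0.195 by DESeq2 on 5 samples, which held 35367 genes in place of 19427). It ran from -0.23 to 0.48 as libraries were left out (0.02 without control library 3), and Hbegf from -1.89 to 0.15. The causes were not tested. Genes of the 10 that were higher at an unadjusted p under 0.05 numbered 0 with a mean count of at least 100 and 0 to 2 as libraries were left out, and lower genes 2 with the replicate block (Areg and Hbegf, the latter at -0.98) and 0 to 1 as libraries were left out. Of the 66 pathway genes, those higher numbered 9 by edgeR and 9 by DESeq2 on 6 libraries, 12 with the replicate block, 3 by DESeq2 on 5 samples, 9 by limma and 0 to 5 as libraries were left out. Those lower numbered 2, 2 and 4 by edgeR and DESeq2 on 6 libraries and with the block. Across genes, deviations of same-numbered libraries from their group means correlated at -0.10, 0.34 and 0.38, control tumor 1 correlated best with DMHCA library 2 (0.12), and the tumors share only a number. With the replicate block Nrg1 was 2.66 and Areg -2.41. Ereg and Epgn had at most 35 expected counts in any library, which limits the precision of their values.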
